A study of Mus musculus with 47 samples.

Results

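Cytosolic ribosomal protein genes were followed across mouse intestinal tissue and intestinal organoids. The genes were chosen by symbol alone, as those named Rpl, Rps or Rplp with a number and at most 1 of a few closing letters. They were 80 of the 24062 gene symbols counted: 46 of the large subunit, 31 of the small subunit and the 3 stalk genes Rplp0, Rplp1 and Rplp2. Kinases of the Rps6k family and genes named as pseudogenes are not matched by the name pattern. The pattern did admit Rps4l, which GENCODE annotates as a transcribed processed pseudogene.

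The ribosome is built of ribosomal RNA and about equimolar amounts of its proteins, and the messages of these proteins start with a run of pyrimidines through which the mTORC1 pathway and the RNA-binding protein Larp1 control their translation. Their transcription is sustained by growth signals, among them the Myc network. In the intestine the demand for ribosomes is highest in dividing crypt cells and falls as cells mature into enterocytes. Most of these genes have left many processed pseudogenes in the mouse genome, which matters for every read that has to be placed in 1 gene.

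The 47 libraries come from mice aged 15 to 19 weeks or from organoids. Adenomas and Min mucosa carry the APC Min allele, a truncating mutation of a tumour suppressor of the Wnt pathway, and wild-type mucosa does not. The backgrounds are PWD (PWD/Ph, sampled as wild-type mucosa only), B6xPWD (the F1 of C57BL/6 and PWD), C5 (a consomic strain with chromosome 5 of PWD/Ph on C57BL/6), C5F1 (the F1 of C57BL/6 and C5) and B6 (C57BL/6). Each of the 13 tissue groups has 3 libraries. The 4 organoid groups, C5 and B6 with and without 5-aza-cytidine (AZA), a cytidine analogue that depletes DNA methyltransferases, have 2 libraries each and carry APC Min in both arms. The labels do not say whether the organoids were grown from adenoma or mucosa, nor whether each replicate is its own animal or culture. The p-values given here therefore describe spread between libraries, which may be technical.

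Tissue libraries held between 2726505 and 20070696 reads in genes, and organoid libraries between 4389898 and 8373764. The ribosomal RNA precursor Rn45s took 16.4 to 72.7% of them in tissue and 0.76 to 1.61% in organoids. The 80 genes together took 0.114 to 0.668% in tissue and 0.919 to 1.78% in organoids. With Rn45s left out of the total, their share was 0.329 to 1.02% in tissue and 0.934 to 1.79% in organoids, and these ranges overlapped. Markers of the epithelium were present in every library, and summed markers of T cells and of B and plasma cells were at most 11.9 CPM in any organoid library and at least 14.9 CPM in any tissue library. Smooth muscle markers summed to 134 to 222 CPM in AZA organoids and 52.9 to 100.2 CPM in control organoids, and to 134 CPM or more in tissue, where tissue and organoids were scaled apart. In bulk libraries fewer cells of a type and less RNA per cell cannot be told apart.

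How well a gene of this family can be counted depends on how far its sequence differs from its copies. A coding position was called copy-free where the 36-base word that starts there, within 1 exon, occurs in no transcript of another gene of the GENCODE annotation of GRCm38. Of the 79 members with coding sequence, 29 had no such position, 26 had some but under 20%, and 24 had at least 20%. The last class held 81.7% of all member counts and the first class 2.85%. Rpl4, Rps3 and Rpl8, with copy-free shares of 67.8, 80.3 and 87.1%, held 17.4, 10.3 and 8.06% of all member counts. Across members, counts per coding kilobase and the copy-free share had a Spearman correlation of 0.593, given as a description since the points share libraries. RefSeq names 308 pseudogenes after 62 of the members, with Rpl31 (24), Rps12 (23) and Rpl21 (15) at the head. Levels are therefore compared within a gene and not between genes.

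**Figure D1:**
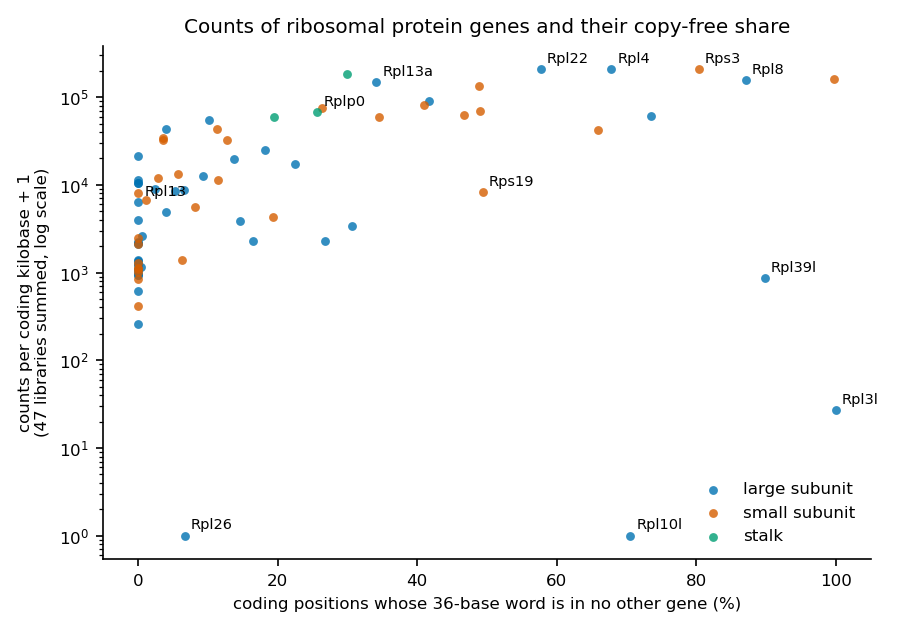
Each point is 1 ribosomal protein gene, with the share of copy-free coding positions in percent on the x axis and counts per coding kilobase plus 1, summed over 47 libraries, on a log scale on the y axis. Colours mark the subunit. Rps3, Rpl4, Rpl22 and Rpl8 lie high on the right, the 29 members without a copy-free position lie on the left edge, and Rpl10l and Rpl26 had no count.

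Several members differ from their nearest copy, over the stretch where they can be told apart, by a single letter. The sequences below, from the GENCODE annotation of GRCm38, show 41 bases of coding strand for 3 members that were far lower in PWD mucosa and for 1 that was not, each followed by its copy, with the differing letter in capitals. Such a letter is all that separates a read of the gene from a read of the copy there. The Rpl7a window is chr2:26911463-26911503 (plus strand), the Rpl3 window chr15:80079733-80079773 (minus), the Rps18 window chr17:33952247-33952287 (minus) and the Rpl18 window chr7:45719941-45719981 (plus). Each window lies within 1 coding exon.
Rpl7a: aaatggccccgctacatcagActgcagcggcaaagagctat
Gm16477 (chromosome 7): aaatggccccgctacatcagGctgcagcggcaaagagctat
Rpl3: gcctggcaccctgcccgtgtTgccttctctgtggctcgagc
Gm12816 (chromosome 4): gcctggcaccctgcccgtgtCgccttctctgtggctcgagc
Rps18: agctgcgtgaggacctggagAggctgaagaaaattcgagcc
Rps18-ps3 (chromosome 8): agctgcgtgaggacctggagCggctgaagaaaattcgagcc
Rpl18: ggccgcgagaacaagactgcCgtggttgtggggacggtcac
Rpl18-ps2 (chromosome 6): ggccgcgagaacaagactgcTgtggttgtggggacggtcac

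Promoter sequence was not part of the choice of members. Windows of 60 bases, 40 before and 20 after the RefSeq start (GRCm38.p6), are shown for some members tested in organoids, with the longest run of pyrimidines in capitals. The marked runs of Rpl4, Rpl39 and Rpl39l lie wholly before that start, and those of Rplp2, Rps9 and Rps24 span it. The windows are those of Rpl4 (chr9:64173347-64173406, plus), Rplp2 (chr7:141447611-141447670, plus), Rps9 (chr7:3704001-3704060, plus), Rps24 (chr14:24490638-24490697, plus), Rpl39 (chrX:37085203-37085262, minus) and its autosomal paralog Rpl39l (chr16:10170188-10170247, plus).
Rpl4: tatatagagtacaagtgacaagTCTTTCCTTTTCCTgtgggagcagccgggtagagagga
Rplp2: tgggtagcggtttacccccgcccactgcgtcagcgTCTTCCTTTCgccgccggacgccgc
Rps9: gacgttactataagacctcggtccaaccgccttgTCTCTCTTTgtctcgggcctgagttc
Rps24: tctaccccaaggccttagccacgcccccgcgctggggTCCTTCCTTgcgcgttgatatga
Rpl39: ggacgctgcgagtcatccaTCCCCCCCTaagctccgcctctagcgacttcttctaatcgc
Rpl39l: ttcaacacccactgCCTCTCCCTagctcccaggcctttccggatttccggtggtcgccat

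A run of at least 8 pyrimidines on the gene's strand within 25 bases of the start was found in 32 of the 59 members with a RefSeq window (54.2%) and in 22.3% of the windows of 27025 genes. The ETS core CCGGAAG, searched on both strands over 300 bases, was in 24 of 59 members (40.7%) and in 9.93% of all windows. The YY1 motif GCCATCTT, searched likewise, was in 5 of 59 (8.47%) and in 3.19% of all windows. Rpl39l held the ETS core and a pyrimidine run. These matches are letters in a window and not binding sites.

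Adenoma was compared with Min mucosa to see whether the tumour tissue carries more of these messages. Values are CPM, counts scaled to a common library size by the trimmed mean of M-values, and a member was called where its p in edgeR's quasi-likelihood test, adjusted by Benjamini-Hochberg over the 13657 tissue genes tested, was under 0.05. Of the 80 members, 61 had enough counts for the test. As the mean of 4 backgrounds, 12 members rose in adenoma and 1 fell. The background over the genes tested was 23.7% called higher and 21.5% called lower, so the 12 of 61 are a share no larger than the background. The change was above 0 in 56 of 61 members, with a median of 0.253 on the log2 scale against 0.013 over all genes tested. None of the 61 had 12 adenoma libraries that all lay apart from the 12 Min mucosa libraries, as 2.12% of all genes tested had. The shift was thus small and mostly one way.

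Rps27a, which encodes a small-subunit protein fused to ubiquitin, had 1.57, 2.68 and 4.21 CPM (lowest, median and highest of 12) in adenoma, against 0.629, 1.41 and 2.78 CPM in Min mucosa. The ranges overlapped, and the log2 change was 0.87 ± 0.20 (SE, adjusted p = 0.000551). In B6 all adenoma libraries (2.75, 2.85 and 3.20 CPM) lay above all Min mucosa libraries (0.629, 1.23 and 1.40 CPM). In C5 they did not differ in this way, with 2.10, 2.48 and 2.74 CPM in adenoma and 2.00, 2.32 and 2.78 CPM in Min mucosa. Of all genes tested, 41.7% had no overlap in B6 and 22.2% in C5. The changes of Rps27a were 1.43 in B6 (adjusted p = 0.00647), 1.09 in C5F1 (adjusted p = 0.0629), 0.02 in C5 (adjusted p = 0.997) and 0.94 in B6xPWD (adjusted p = 0.106). Rps27a has no copy-free position, so its counts and those of its copies are uncertain.

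Rpl7, a large-subunit protein, had 37.4, 48.3 and 62.7 CPM in adenoma, against 28.1, 34.9 and 42.7 CPM in Min mucosa (log2 change 0.47 ± 0.11, adjusted p = 0.00102). Its upper adenoma values lay beyond the Min mucosa range. Rplp0, the core of the stalk that recruits elongation factors, had 64.3, 166 and 339 CPM in adenoma, against 57.3, 125 and 310.0 CPM in Min mucosa (log2 change 0.36 ± 0.11, adjusted p = 0.00823). These ranges overlapped almost fully, and the backgrounds differed widely in Rplp0. Rpl3, which lies at the peptidyl transferase centre, changed by 0.53 ± 0.19 (adjusted p = 0.0187), and Rpl13a and Rpl8 by 0.35 and 0.31. The other called rises were Rps2, Rps21, Rpl41, Rpl12, Rps12 and Rpl27, between 0.42 and 0.92. Of these, Rpl12, Rps12 and Rpl27 had few counts, with means of at most 3.96, 1.71 and 1.73 CPM in the adenoma groups. Rpl12 and Rpl27 have no copy-free position, and Rps12 has a share of 6.32%. The pseudogene Rps4l was the one that fell, with 1.58, 7.43 and 19.2 CPM in adenoma, against 7.37, 11.2 and 16.2 CPM in Min mucosa (change -0.50 ± 0.20, adjusted p = 0.0358). By background Rps4l changed by 0.18 in B6, -0.264 in C5, -0.875 in C5F1 and -1.047 in B6xPWD, called in none. When a library or the count filter was left out, Rpl8 lost its call in 19 settings, Rps2 in 15 and Rps21 in 13. Rpl41 lost it in 9, Rps4l in 7, Rpl13a in 4 and Rpl3 in 1.

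Several members with well-known roles were not called. Rpl5, which with Rpl11 binds Mdm2 and so links ribosome assembly to p53, changed by 0.34 (adjusted p = 0.407), and Rpl11 had too few tissue counts for the test. Rps6, the classical substrate of the S6 kinases, changed by -0.12 (adjusted p = 0.717). Rpl4, the member with the most counts, changed by 0.10 (adjusted p = 0.403), and Rpl22, an RNA-binding large-subunit protein, by 0.04 (adjusted p = 0.808). Among paralog pairs, Rps27l changed by -0.02 and Rpl10 by 0.30, neither called. The stalk proteins Rplp1 and Rplp2 changed by 0.28 (adjusted p = 0.403) and 0.27 (adjusted p = 0.0555).

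Within single backgrounds, 3 members rose in B6 adenoma (Rps27a, Rpl7 and Rps21, with 13% of all genes called higher and 13.7% lower there) and none was called in C5F1, C5 or B6xPWD. At an unadjusted p under 0.05 those backgrounds gave 5, 1 and 3 members, and DESeq2 also called none in each. The background was 10.9% called higher and 9.66% lower in C5F1, 2.59% higher and 0.176% lower in C5, and 9.43% higher and 6.98% lower in B6xPWD. The difference of the adenoma effect from that in B6 was called for no member in C5F1, C5 or B6xPWD (edgeR, and none by DESeq2), and 0, 1 and 1 members had an unadjusted p under 0.05. Over the genes tested the difference was called for 0.0% in C5F1. It was called higher for 0.0732% and lower for 0.0366% in C5, and higher for 0.476% and lower for 0.154% in B6xPWD. With the replicate number of each background as a block, 22 members rose and 1 fell as the mean of 4 backgrounds, while 52.3% of all genes were called, and 12 rose in B6 (36.2% of all genes called), 3 rose and 1 fell in C5F1 (29.0%), none was called in C5 (5.45%) and 1 fell in B6xPWD (24.3%). The B6 count of 3 became 1 when replicate 3 of the B6 adenomas, or replicate 2 or 3 of the B6 Min mucosa, was left out, and 5, none of them among the 3, when replicate 1 of the B6 Min mucosa was left out. The C5F1 count became 1 without C5F1 adenoma replicate 2 or C5F1 Min mucosa replicate 3, and the B6xPWD count became 1 without B6xPWD adenoma replicate 1. Without B6xPWD adenoma replicate 3, 5 members were called as the mean of 4 backgrounds. Without C5F1 Min mucosa replicate 3 there were 7, and there were 8 without B6 adenoma replicate 2, B6xPWD Min mucosa replicate 1, C5 adenoma replicate 1, C5 adenoma replicate 2 or C5 Min mucosa replicate 3.

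Other genes of the translation machinery are read against the same background of 23.7% called higher and 21.5% called lower. Of 49 tested ribosome biogenesis factors, 44 rose and none fell, with a median change of 0.62. Nop56, a core protein of box C/D snoRNPs, changed by 0.96, Mybbp1a by 0.85 and the nucleolar helicase Ddx21 by 0.65. Of 27 initiation factors 13 rose and 1 fell, and of 10 elongation factors 5 rose and 1 fell. Of 15 other genes with pyrimidine-rich starts 5 rose, among them Pabpc1 (0.46) and Nap1l1 (0.82). Of 75 mitochondrial ribosomal protein genes 14 rose and 1 fell. Of 19 regulators 5 rose and 3 fell, with Mycl at 1.37 and Max at -0.66.

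Cell type markers moved with the same comparison. Of 12 enterocyte markers 9 fell in adenoma (summed 1643 to 10210 CPM in adenoma, against 7543 to 22760 CPM in Min mucosa), and 11 of 15 crypt and cell cycle markers rose (summed 933 to 1159 CPM in adenoma, against 661 to 1246 CPM in Min mucosa). All 10 smooth muscle markers fell (134 to 1494 CPM in adenoma, against 264 to 3057 CPM in Min mucosa), and 4 of 12 fibroblast and endothelial markers rose. The part of these shifts in the ribosomal protein results was not tested.

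Whether the Min allele changes these genes outside tumours was asked by setting Min mucosa against wild-type mucosa. No member was called by edgeR as the mean of 4 backgrounds, none had an unadjusted p under 0.05, and DESeq2 called none. Among all genes, 0.00732% were called higher and 0.0% lower. The median change was -0.062 over members and -0.002 over all genes. The smallest p belonged to Rpl37 (-0.28 ± 0.15, adjusted p = 0.713), followed by Rpl41 (-0.29) and Rps18 (-0.40).

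**Figure D2:**
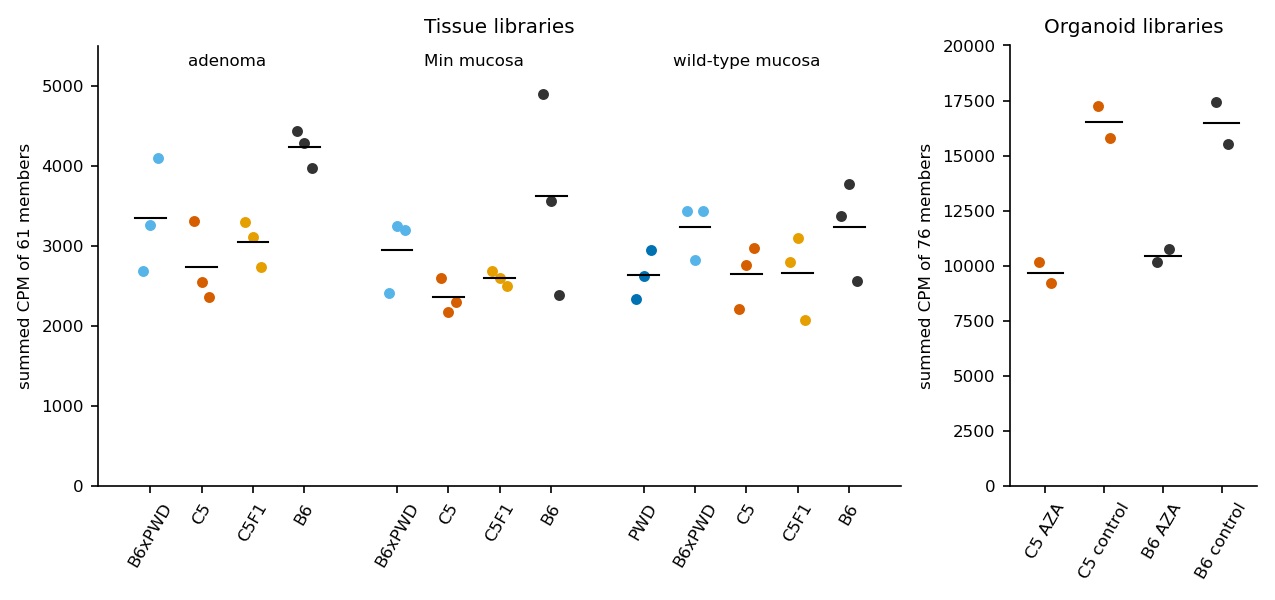
Summed CPM of the members tested, with 61 members in 39 tissue libraries on the left and 76 members in 8 organoid libraries on the right, points for libraries and bars for group means. The scales of the panels were normalised apart. C5 adenoma libraries lay between 2360 and 3306, below the B6 adenoma libraries at 3975 to 4437, and AZA organoids lay between 9211 and 10740, below the control organoids at 15520 to 17440.

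The widest differences of single members were between strains. In wild-type mucosa of PWD against B6, 3 members rose and 19 fell of 61 tested, where 9.96% of all genes were called higher and 8.79% lower. The median change was -0.54 over members and 0.0 over all genes, and 27 members (44.3%) had no overlap between the 3 PWD and the 3 B6 libraries, as had 29.2% of all genes tested. The falls were uneven across the classes of sequence. Of 21 members with a copy-free share of at least 20%, 4 fell and none rose. Of 24 members with a share above 0 but under 20%, 10 fell and 2 rose. Of 15 members with no copy-free position, 4 fell and 1 rose, and the fall of Rps4l completes the count.

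Rps4x, an X-linked protein of the small subunit, had 0, 0.144 and 0 CPM in PWD, against 32.9, 39.99 and 28.4 CPM in B6. A single read in PWD faced 518 in B6, a ratio of 501 with a 95% counting interval from 89.5 to 19830 (adjusted p of the test 3.14e-05). B6xPWD wild-type mucosa had 39.6, 39.7 and 25.5 CPM, within the B6 range or close to it. In B6xPWD adenoma and Min mucosa, however, the libraries with replicate number 3 stood apart: adenoma replicate 3 had 0.263 CPM, against 28.1 and 18.9 CPM in the other adenomas, and Min mucosa replicate 3 had 0.0 CPM, against 24.8 and 22.8 CPM in the other Min mucosa libraries. Rps4x was thus near 0 in every PWD library and in a pair of same-numbered B6xPWD libraries, and well counted in all other groups of wild-type mucosa.

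Rps26, a small-subunit protein near the exit of the mRNA channel, had 0.508, 0.433 and 1.22 CPM in PWD, against 108, 104 and 57.9 CPM in B6 (change -7.10 ± 0.47, adjusted p = 6.68e-13). B6xPWD mucosa lay between, at 39.9, 45.5 and 54.9 CPM (change against B6 -0.96, adjusted p = 0.0376), and C5 mucosa at 47.7, 82.9 and 92.5 CPM. The PWD libraries did not overlap any other group. Rps19, the gene most often mutated in human Diamond-Blackfan anaemia, had 0.254, 0.289 and 0.304 CPM in PWD, against 21.4, 29.0 and 15.9 CPM in B6 (change -6.23 ± 0.97, adjusted p = 2.14e-05). Rps19 has a copy-free share of 49.4%. Rpl37 had 0.508, 0.144 and 0.608 CPM in PWD, against 21.6, 30.2 and 19.3 CPM in B6 (change -5.99 ± 0.50, adjusted p = 1.86e-10).

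The members whose single-letter windows are printed above followed. Rpl7a, a large-subunit protein, had 0.254, 0.577 and 0 CPM in PWD, against 17.2, 17.9 and 10.2 CPM in B6 (change -5.42 ± 0.39, adjusted p = 5.73e-12). In B6xPWD it had 8.25, 5.79 and 7.03 CPM, a change against B6 of -1.17 (adjusted p = 0.00299), and C5F1, with 16.5, 18.2 and 14.6 CPM, overlapped the B6 libraries. Rpl7a in B6xPWD thus lay between the parents without overlap. Rps18 had 0.508, 0 and 0 CPM in PWD, against 7.85, 10.9 and 7.94 CPM in B6, or 2 reads against 134 (ratio 64.8, 95% counting interval 17.6 to 541). Rpl3 had 1.27, 0.144 and 0.912 CPM in PWD, against 12.2, 13.8 and 3.97 CPM in B6 (change -3.97 ± 0.51). Each of these PWD groups lay below its B6 group. Rpl18, likewise separated from a copy by 1 letter, had 13.7, 15.6 and 15.5 CPM in PWD, against 11.0, 12.3 and 17.6 CPM in B6, and was not called (change 0.19, adjusted p = 0.753). Rpl30, the other such member, was not called either (change -0.38, adjusted p = 0.873), and Rpl6 rose. A difference between the strains in a message and a difference in how its reads align to the C57BL/6 genome cannot be told apart in these counts.

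Rpl35a (-4.24 ± 0.51), Rpl37a (-2.96), Rps24 (-2.18), Rpl14 (-2.23), Rpl13 (-2.00), Rps15a (-1.74) and Rpl27a (-1.30) were among the other falls. The rises were Rpl21 (1.90 ± 0.43, adjusted p = 0.00168), Rps7 (1.52 ± 0.45, adjusted p = 0.0171) and Rpl6 (1.34 ± 0.36, adjusted p = 0.00815). Of the 3 members with the copy-free shares given above, none was called. Rpl4 had 356, 381 and 442 CPM in PWD, against 457, 567 and 379 CPM in B6 (change -0.25, adjusted p = 0.366). Rps3, at the mRNA entry channel, had 298, 260 and 275 CPM in PWD, against 263, 339 and 293 CPM in B6 (change -0.10). Rpl8 changed by 0.17. For these the strain groups overlapped. Ribosomal protein genes outside the name pattern numbered 7 tested, of which 3 fell and 1 rose, with Rps3a1 at -4.69, Rpsa at -2.32 and Fau at 1.84.

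The hybrids and the consomic strain were set against the same B6 libraries. In B6xPWD, 2 members rose (Rpl21 and Rps7) and 8 fell, against a background of 5.29% called higher and 4.31% called lower. In C5F1 no member was called, by edgeR or DESeq2, and 9 had an unadjusted p under 0.05, with 0.022% of all genes called higher and 0.0% lower. In C5, Rpl21 rose and Rplp0 and Rpl27a fell, where 0.996% were called higher and 0.476% lower. The B6xPWD count of 10 became 2 without B6 replicate 1 or B6 replicate 2, 4 without B6xPWD replicate 1 or B6xPWD replicate 2, and 6 without B6xPWD replicate 3, and the C5 count of 3 became 9 without B6 replicate 3. With only the compared groups in the fit, 1 member was called in B6xPWD and none in C5. In PWD mucosa 5 of 12 enterocyte markers were higher than in B6, where 9.96% of all genes were called higher and 8.79% lower. Of the 12 Paneth and goblet cell markers counted 5 were lower, and of the 10 B and plasma cell markers 4 were lower. The part of these markers in the member results was not tested.

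**Figure D3:**
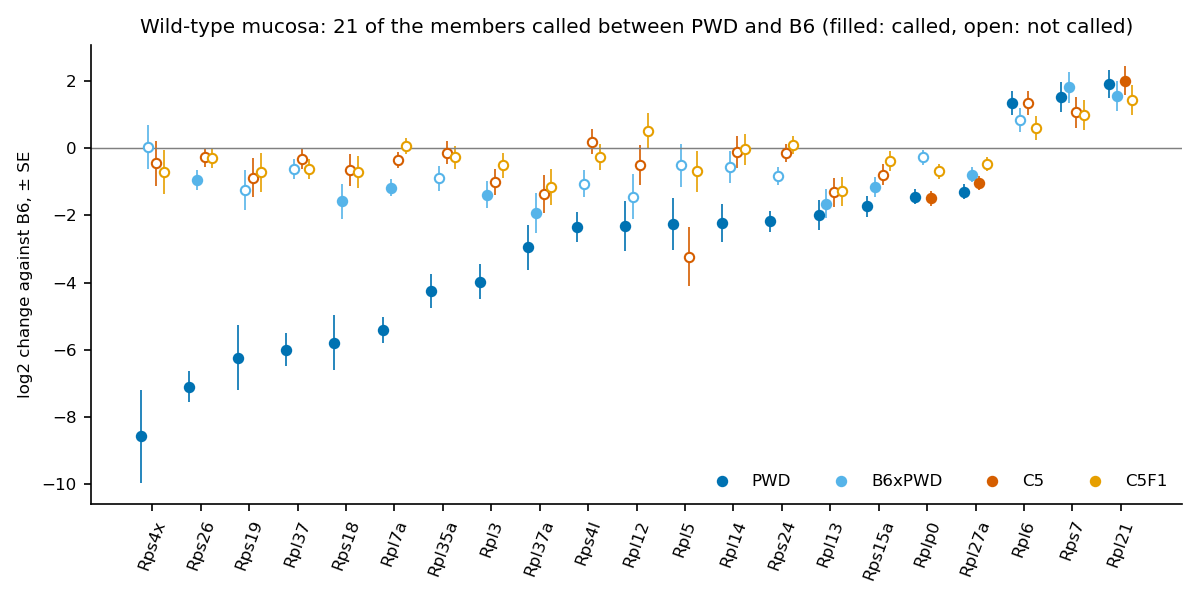
Log2 change against B6 wild-type mucosa with SE for 21 of the 22 members called in PWD, shown for PWD, B6xPWD, C5 and C5F1 (3 libraries each). Filled points were called and open points were not. Rps26 to Rpl3 lie between -7.10 and -3.97 in PWD while the other backgrounds lie closer to 0, and Rpl6, Rps7 and Rpl21 lie above 0 in all 4.

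Chromosome 5 carries 5 members, Rpl9, Rpl5, Rplp0, Rpl6 and Rpl21, which in C5 come from PWD/Ph. C5 was compared with B6 as the mean of adenoma, Min mucosa and wild-type mucosa (9 libraries each), where 2 members rose and 23 fell of 61, and 10.3% of all genes were called higher and 8.36% lower. The 4 tested chromosome 5 members were all called, 2 in each direction, and of the 57 elsewhere 21 fell and none rose. Without B6 Min mucosa replicate 1, the library with the highest summed level, 2 rose and 14 fell.

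Rplp0 had 57.3, 68.5 and 89.4 CPM in C5, against 157, 236 and 339 CPM in B6 (change -1.84 ± 0.13, adjusted p = 8.67e-12), without overlap. In wild-type mucosa it had 70.6, 76.3 and 73.0 CPM in PWD, 68.5, 70.9 and 73.7 CPM in C5, 148, 136 and 88.6 CPM in C5F1 and 201, 124 and 171 CPM in B6xPWD, against 202, 236 and 161 CPM in B6. PWD and C5 were alike and lowest, and the F1 groups lay above both with 1 PWD/Ph chromosome 5. The change in C5 was -2.06 in adenoma, -1.97 in Min mucosa and -1.49 in wild-type mucosa, called in each.

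Rpl21, a large-subunit protein with 15 named pseudogenes and no copy-free position, went the other way. It had 3.799, 7.09 and 11.5 CPM in C5, against 0.567, 1.51 and 2.72 CPM in B6 (change 2.03 ± 0.24, adjusted p = 4.57e-07), without overlap. In wild-type mucosa it had 8.63, 6.64 and 6.99 CPM in PWD, 8.30, 7.09 and 8.52 CPM in C5, 8.03, 5.58 and 3.38 CPM in C5F1 and 8.58, 5.21 and 3.96 CPM in B6xPWD, against 1.81, 2.72 and 0.567 CPM in B6. Every group with a PWD/Ph chromosome 5 lay above B6. Rpl6 had 18.2, 29.9 and 47.7 CPM in C5, against 7.70, 17.4 and 21.99 CPM in B6 (change 1.05, adjusted p = 0.000662), with overlap, and Rpl5 fell by 1.21 on the log2 scale (adjusted p = 0.0439). Rpl5 had few counts, and its fall was not seen in every tissue. In wild-type mucosa 2 reads in C5 faced 21 in B6, with means of 0.1074 and 1.364 CPM. In Min mucosa C5 was not lower, with means of 0.6638 CPM in C5 and 0.6015 CPM in B6. In adenoma the means were 0.8285 CPM in C5 and 1.099 CPM in B6, with overlap.

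**Figure D4:**
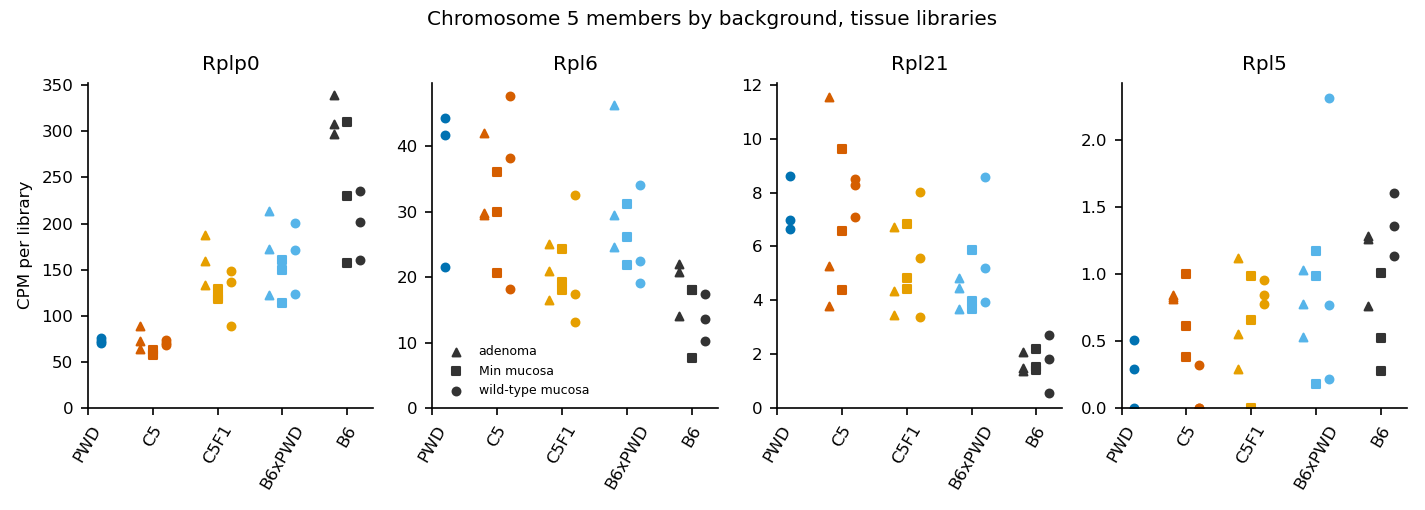
CPM per tissue library of Rplp0, Rpl6, Rpl21 and Rpl5 by background, with triangles for adenoma, squares for Min mucosa and circles for wild-type mucosa (3 libraries each). Rplp0 lay at 57.3 to 89.4 CPM in C5 and at 157 to 339 CPM in B6, and Rpl21 at 3.799 to 11.5 CPM in C5 and at 0.567 to 2.72 CPM in B6. In Rplp0 the F1 libraries lay mostly above the C5 range and partly within the B6 range. In Rpl21 they lay above the B6 range and mostly within the C5 range.

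Away from chromosome 5 the stalk proteins Rplp1 and Rplp2 also fell in C5. Rplp1 had 73.7, 132 and 305 CPM in C5, against 82.8, 329 and 711 CPM in B6 (change -1.28), and Rplp2 changed by -0.38 (adjusted p = 0.0458). Their ranges overlapped. Rpl13 changed by -1.31, Rps18 by -1.17, Rps10 by -0.96, Rpl39 by -0.88 and Rpl8 by -0.64. Rpl4 (-0.44, adjusted p = 0.00484) fell less. Rps27a (0.33), Rps6 (-0.35), Rpl22 (-0.16) and Rps4x (-0.15) were not called. By tissue, 1 rose and 11 fell in adenoma (with 9.49% of all genes called higher and 8.28% lower), 1 rose and 1 fell in Min mucosa (0.505 and 0.593%), and 1 rose and 2 fell in wild-type mucosa. In the same comparison 7 of 12 enterocyte markers rose, 6 of 49 ribosome biogenesis factors fell and none rose, and 13 of 75 mitochondrial ribosomal protein genes fell and 2 rose. The part of the enterocyte markers was not tested.

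In control organoids of C5 against B6, Rpl21 was the one member called, where 0.127% of all genes were called higher and 0.0821% lower. It had 127 and 194 CPM in C5 controls, against 9.24 and 3.49 CPM in B6 controls (change 4.65 ± 0.36, adjusted p = 1.5e-05), and 150 and 140 CPM in C5 with AZA, against 7.88 and 6.22 CPM in B6 with AZA (change 4.36, adjusted p = 2.3e-05, the one member called there, where 0.0747% of all genes were called higher and 0.0597% lower). The C5 cultures lay more than 10 times above the B6 cultures in either arm. Rplp0 had 329 and 461 CPM in C5 controls, against 733 and 603 CPM in B6 controls (change -0.76, adjusted p = 0.408), and Rpl9 had 29.0 and 20.1 CPM in C5 controls, against 5.92 and 10.6 CPM in B6 controls (change 1.57, adjusted p = 0.616). Neither pair of groups overlapped, as was so for 36.2% of all genes tested, and neither change was called. 

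AZA was compared with control organoids, as the mean of B6 and C5 (4 libraries each), to ask how ribosomal protein messages behave in the treated cultures. Here the family fell broadly. Of 76 members tested, 37 fell and 2 rose, where 13.5% of all genes were called lower and 15.0% higher. The change was below 0 in 70 of 76, with a median of -0.65 over members and 0.039 over all genes, and in 40 members (52.6%) the AZA and control libraries did not overlap, as in 29.6% of all genes tested. Summed over the 76, AZA libraries held 10150 and 10740 CPM in B6 and 10170 and 9211 CPM in C5, against 17440 and 15520 CPM in B6 controls and 17270 and 15800 CPM in C5 controls. Both subunits took part, with 14 of 42 large-subunit, 20 of 31 small-subunit and all 3 stalk members lower. The fall was called in 16 of 22 members with a copy-free share of at least 20%, in 16 of 25 with a lower share and in 5 of 28 with none.

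Rpl4, which lines the exit tunnel, had 2295 and 2432 CPM in B6 and 2259 and 2205 CPM in C5 with AZA, against 3959 and 3638 CPM in B6 and 3534 and 3513 CPM in C5 controls (change -0.67 ± 0.10, adjusted p = 9.1e-05). Rps3, with libraries again in the order B6, B6, C5 and C5, had 954, 1032, 1000 and 879 CPM with AZA, against 1842, 1645, 2193 and 1772 CPM in controls (change -0.95 ± 0.11, adjusted p = 1.8e-05). Rpl8 had 605, 640, 637 and 555 CPM with AZA, against 1261, 1061, 1151 and 1114 CPM in controls (change -0.91, adjusted p = 2e-05). For these well-counted members every AZA library lay below every control library of either background. Rpl22 changed by -0.84, Rps4x by -1.17 and Rps24 by -0.95.

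The stalk fell with the rest. Rplp0 had 522, 498, 327 and 229 CPM with AZA, against 733, 603, 329 and 461 CPM in controls (change -0.45, adjusted p = 0.0295), and the ranges overlapped across backgrounds but not within them. Rplp1 changed by -0.66 (adjusted p = 0.00265). Rplp2 had 197, 169, 163 and 109 CPM with AZA, against 349, 270.0, 308 and 251 CPM in controls (change -0.90, adjusted p = 0.000376). The largest called fall was that of Rpl17, with 2.74, 2.42, 1.30 and 0.228 CPM with AZA, against 9.24, 5.53, 9.10 and 10.8 CPM in controls (change -2.54, adjusted p = 0.00485). Rpl9 followed at -2.40, Rps10 at -1.33, Rps25 at -1.14 and Rpl13 at -1.14. Rpl17, Rpl9 and Rpl13 have no copy-free position.

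Some members with roles outside the ribosome were called and others were not. Rps6 (-0.76, adjusted p = 0.0202) and Rpl3 (-0.74, adjusted p = 0.00163) fell. Rpl5 (-0.47, adjusted p = 0.0854), Rpl11 (0.22, adjusted p = 0.786), Rps27a (-0.08, adjusted p = 0.911), Rpl10 (-0.09) and Rpl21 (0.00) were not called. Rps27l, a paralog of Rps27 known as a p53 target, had 84.4, 107, 105 and 82.0 CPM with AZA, against 57.9, 78.1, 114 and 44.0 CPM in controls, with overlap and no call (change 0.37, adjusted p = 0.263). Its partner Rps27 was not called either (-0.74, adjusted p = 0.652).

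The members that rose were Rpl39l and Rps4l. Rpl39l, the paralog of the X-linked Rpl39 known for its expression in mouse male germ cells, had 41 and 71 reads in B6 and 3 and 9 reads in C5 with AZA, against 1 and 0 reads in B6 and 0 and 0 reads in C5 controls. Pooled, 124 reads faced 1, a ratio of 155 with a 95% counting interval from 27.3 to 6161 (adjusted p = 0.00288). In B6 the ratio was 133 (23.4 to 5297, adjusted p = 0.0187). In C5, 12 reads against 0 were at least 5.25-fold higher, with 3 counts over the control group as the floor (adjusted p = 0.0718). The difference of the effect between C5 and B6 was not called (-0.73, adjusted p = 1.0). Its copy-free share of 89.8% sets it apart from Rpl39, which has none and had 15.8, 26.6, 25.9 and 28.5 CPM with AZA, against 41.3, 28.7, 48.3 and 26.6 CPM in controls (change -0.59, adjusted p = 0.098). Rps4l had 14.6, 12.96, 10.6 and 23.7 CPM with AZA, against 1.88, 8.15, 5.05 and 4.06 CPM in controls (change 1.68 ± 0.46, adjusted p = 0.0122), without overlap. Of the other tissue-restricted paralogs, Rpl10l had no read in any of the 47 libraries and Rpl3l had 32 reads in 11 libraries, too few for the test in organoids. It had 0 and 2 reads in C5 and 13 and 0 in B6 with AZA, against 0 and 0 in C5 and 0 and 9 in B6 controls.

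**Figure D5:**
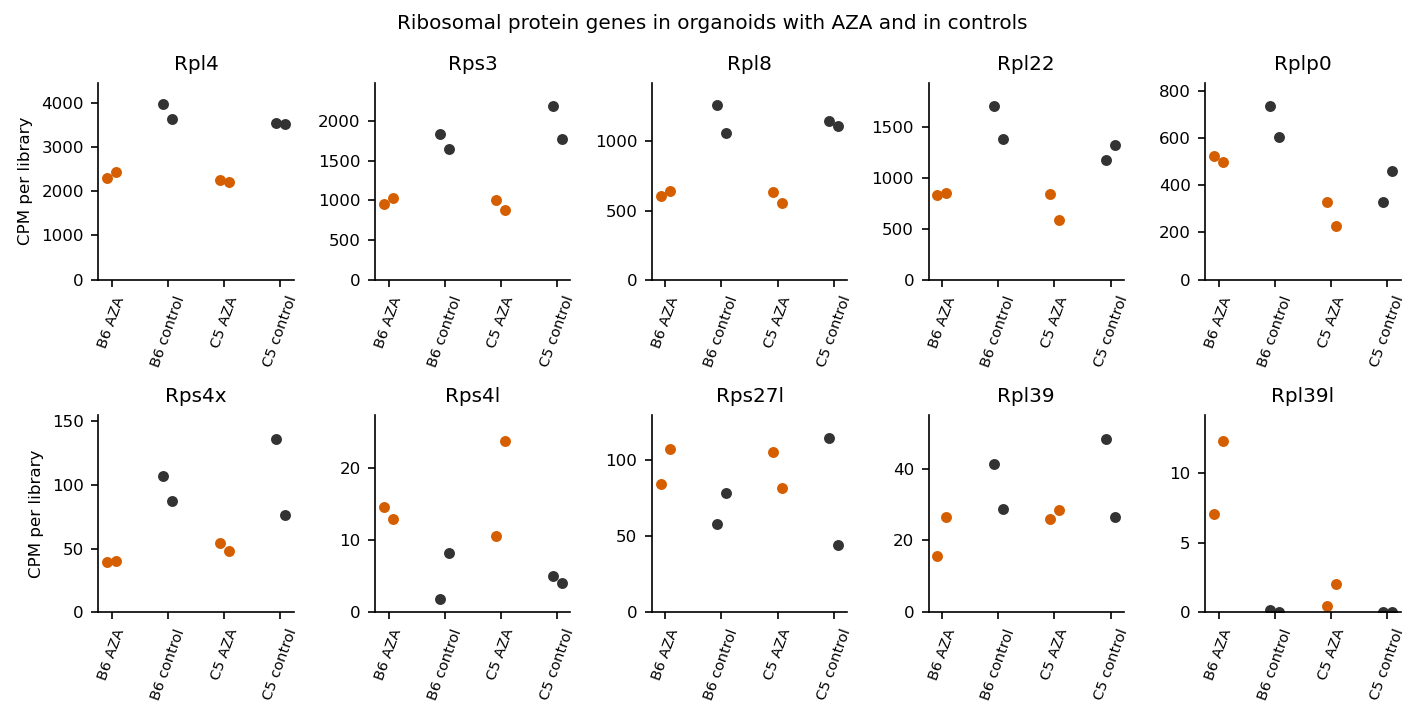
CPM per organoid library of 10 members, with AZA (orange) left of its control (black) in B6 and in C5 (2 libraries each), each panel on its own axis from 0. Rpl4, Rps3, Rpl8, Rpl22 and Rps4x were lower in every AZA library than in every control library, Rps4l and Rpl39l were higher in every AZA library, and Rps27l and Rpl39 overlapped.

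By background, 19 members fell and 1 rose in B6 (6.91% of all genes called lower and 9.2% higher), and 29 fell in C5 (6.49% lower and 8.06% higher). The difference of the effect between C5 and B6 was called for no member by edgeR or DESeq2, and for none at an unadjusted p under 0.05, with 0.0% of all genes called. Without B6 control replicate 1 or B6 AZA replicate 1 the B6 count was 6 and 11 members, and with only the compared groups in the fit 13 fell in C5.

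Genes around the ribosome fell with its proteins. Of 49 ribosome biogenesis factors 27 fell and 1 rose, with Polr1a, the largest subunit of RNA polymerase I, at -1.11 and Gnl3 at -1.07. Of 27 initiation factors 11 fell and of 9 elongation factors 6 fell and 1 rose, with Eef1g at -0.92 and Eef1b2 at -0.79. Of 15 other genes with pyrimidine-rich starts 8 fell and 1 rose, among them the snoRNA host genes Gas5 (-1.21) and Snhg1 (-1.26). Ribosomal proteins outside the name pattern fell in 4 of 8 cases, with Gnb2l1 at -0.89 and Rpsa at -0.83. Of 77 mitochondrial ribosomal protein genes 17 fell. Mycl (-1.61) and the S6 kinase gene Rps6kb1 (-0.60) were among 5 of 19 regulators that fell.

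Markers of cell state moved strongly in the same organoids. Of 15 crypt and cell cycle markers 11 fell and 2 rose, with Lgr5 at -2.55 and Top2a at -1.45, and their summed level was 1553 to 2638 CPM with AZA, against 3564 to 4620 CPM in controls. All 12 enterocyte markers rose, with a median change of 2.35 (25840 to 38220 CPM with AZA, against 5218 to 11190 CPM in controls), and all 11 tested Paneth and goblet cell markers rose (8125 to 12530 CPM with AZA, against 3981 to 4850 CPM in controls). None of these markers was at 0 in either arm. Their part in the fall of the ribosomal proteins was not tested.

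Control organoids were compared with Min mucosa of the same backgrounds, B6 and C5 together (4 against 6 libraries, in a fit of all 47 libraries). Of 76 members tested, 55 were higher in organoids and 6 lower, where 32.8% of all genes were called higher and 41.0% lower. The median change was 1.82 over members and -0.183 over all genes. Culture and library set go with this comparison and cannot be told apart from it. The scaling moved the median of all genes to -0.305 with upper-quartile factors and to -0.313 in DESeq2.

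Rpl4 had 2256, 2140, 2078 and 2039 CPM in control organoids, against 360 to 631 CPM in Min mucosa (change 2.27). Rpl22 had 694 to 972 CPM in control organoids, against 67.1 to 109 CPM in Min mucosa (change 3.23), and Rpl13a, also a subunit of the human GAIT complex, had 841 to 1010 CPM in control organoids, against 67.2 to 143 CPM in Min mucosa (change 3.43). None of these ranges overlapped, as was so for 56.7% of all genes tested and 60.5% of members. Rps16 had 39.98 to 60.2 CPM in control organoids, against 0.28 to 1.56 CPM in Min mucosa (change 6.38, adjusted p = 3.94e-19), and Rpl5 had 17.5 to 23.5 CPM in control organoids, against 0.309 to 1.15 CPM in Min mucosa (change 4.91). Both lack copy-free positions. Of 28 members without a copy-free position 26 were higher and 1 lower, and of 22 with a share of at least 20%, 11 were higher and 3 lower.

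Among the 6 lower members were Rps4l (-2.38), Rplp1 (-1.09, adjusted p = 0.0149), Rpl13 (-1.07), Rpl41 (-0.88) and Rps20 (-0.63). Rplp1 had 89.3 to 138 CPM in control organoids, against 82.1 to 811 CPM in Min mucosa, so it overlapped, while the stalk partners Rplp0 (1.18) and Rplp2 (2.27) were higher. Rps4x (0.98, adjusted p = 0.0538), Rps27l (0.26) and Rps27 (0.55) were not called. Ribosome biogenesis factors were higher in 41 of 49 cases and lower in 3, and mitochondrial ribosomal protein genes higher in 51 of 77 and lower in 7.

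Markers of cells outside the epithelium were lower in the organoids, with all 12 T cell, 8 of 10 B and plasma cell, all 11 myeloid, all 10 smooth muscle and all 12 fibroblast and endothelial markers called lower. Summed T cell markers reached 0.74 to 2.28 CPM in control organoids, against 98.7 to 274 CPM in Min mucosa, with Cd2, Cd4, Cd8a and Gzmb at 0 in organoids. B and plasma cell markers reached 1.18 to 3.57 CPM in control organoids, against 832 to 1538 CPM in Min mucosa, with Blk, Cd79a and Cd79b at 0. Smooth muscle markers summed to 30.7 to 57.8 CPM in control organoids, against 1769 to 3454 CPM in Min mucosa, and fibroblast and endothelial markers to 1.40 to 6.44 CPM in control organoids, against 364 to 648 CPM in Min mucosa. Crypt and cell cycle markers summed to 2096 to 2681 CPM in control organoids, against 754 to 1333 CPM in Min mucosa. The part of these cells in the member results was not tested.

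Correlations among members were computed across libraries and within groups. In the 8 organoid libraries the correlation of a member with the median of the others had a median of 0.698 and was above 0 in 69 of 76, and within groups, as deviations from the group means, the median was 0.222. In the 39 tissue libraries the median was 0.362, and 50 of 61 were above 0, and within groups it was 0.478. These are descriptions over libraries that share depth and scaling.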

How the data were processed

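RNA of 39 tissue and 8 organoid libraries was depleted of ribosomal RNA with RiboMinus and read single-end on an Illumina Genome Analyser IIx, per the labels. The authors deposited raw counts per gene symbol, and the submitters' processing notes name BWA, HTSeq and mm10, while versions, annotation and strand setting are not given in the sources used here. The 5 HTSeq summary categories, 40.7 to 53.9% of tissue and 46.4 to 63.5% of organoid reads, were left out. Those for low alignment quality, no alignment and non-unique alignment were 0 in every library, so the treatment of reads that fit several genes is not given in the sources used here. Without the strand setting, genes and antisense partners cannot be told apart.

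Counts were tested with edgeR 4.0.16 in R 4.3.3, by the quasi-likelihood test with TMM scaling, 1 mean per group and filterByExpr with a minimum count of 10 and a minimum total of 15. The fits kept 13657 genes in tissue, 13395 in organoids and 15202 jointly. Fold changes use a prior count of 0.125. Folds against 1 to 3 reads are ratios of pooled counts with exact 95% intervals, which cover counting error only, as do floors of 3 counts. The range of depth is given in the report. Alternatives were DESeq2 1.42.0, its size factors, upper-quartile factors, no filter, Rn45s left out, the compared groups alone, a replicate block and each library left out. Same-numbered adenoma and Min mucosa libraries deviated together (correlations of 0.107 to 0.455 in 12 pairs). The main tests did not use these pairs, and their changes, SE and p-values are unpaired. The pairs entered only through the replicate block. Among 43 pairs of libraries within groups none was a copy of another (lowest chi-square per degree of freedom 7.62). The scripts were tested on simulated data.

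Members, lists and tests were chosen with earlier results of these data known. Named members are those with known roles, the paralogs and the chromosome 5 members, plus, per comparison, the 8 largest rises and 8 largest falls among called members with at least 5 CPM on the higher side, or the 3 smallest p where none was called. From each list up to 3 genes of smallest p could be named. Sequences come from GENCODE (GRCm38) and RefSeq (GRCm38.p6), which matched all 80 members. Outside this rule, Rpl12, Rps12, Rpl27 and Rpl37a are named in tissue although they lay under 5 CPM there. A few members are counted in the totals and not reported singly here.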

Additional observations from a re-analysis of the deposited data

How the results depend on the processing

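Of 334 counts of called members recomputed under another setting, 299 stayed within 1.5 times the reported one. Counts of 0 that stayed at 0 are among these 299. Of 1172 values of named members 135 lost their call and none changed direction. Of 63 named results, 39 kept their call under every setting. In B6xPWD against B6 wild-type mucosa, Rps26, Rps18 and Rpl3 each lost their call in 6 settings. With the replicate number as a block by background, 23 members were called for adenoma as the mean of 4 backgrounds, 12 in B6, 4 in C5F1 and 1 in B6xPWD, and an additive block gave 1 in C5F1. The block moved no other count of the tissue comparisons by over 1.5 times. In organoids same-numbered AZA and control libraries had correlations of -0.000293 in B6 and -0.0117 in C5, and the block gave 43 members for AZA. With 2 libraries per group these correlations cannot show whether same-numbered libraries share a culture. With the compared groups alone the counts were 2 for adenoma in C5F1, 1 for B6xPWD against B6, 0 for C5 against B6 wild-type mucosa and 13 for AZA in C5. For control organoids of C5 against B6, no filter and DESeq2 each gave 2. The causes were not tested. Leaving out each library gave 5 to 18 members for adenoma as the mean of 4 backgrounds, 1 to 5 in B6, 0 to 1 in C5F1, 0 to 1 in B6xPWD and 0 to 0 in C5. It gave 0 to 0 for Min against wild-type mucosa, 18 to 28 for PWD, 2 to 13 for B6xPWD, 0 to 0 for C5F1 and 2 to 9 for C5 against B6, and 16 to 30 for C5 as the mean of 3 tissues. It gave 36 to 42 for AZA, 6 to 14 in B6 and 20 to 33 in C5, 1 to 2 for C5 against B6 controls and 58 to 63 for control organoids against Min mucosa. Where an arm was left with 1 library, that library was assumed to vary like the other groups. In tissue 19 members had too few counts for the test, among them Rpl11, Rps16 and Rpl9.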
